A study of Danio rerio with 37 samples.

Results

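Ribosome biogenesis factors were followed as a set of 42 genes among the 32520 genes of the deposited zebrafish (Danio rerio) tables. A gene entered the set when its symbol begins with utp, nop, noc, nol or rrp and a number, or when it is pes, bms1, nhp2, npm1a, fbl, dkc1, ncl, wdr12, bop1, gar1 or nob1. The deposited symbol column writes 4 of them in capitals (NOB1, UTP14C, UTP20 and NOL9), and these spellings are kept here. Of the 42 members, 41 had enough reads to be tested. The remaining one, nol4lb, had a mean of 0.0147 TPM (a level corrected for transcript length and library size) over the control libraries. It is a nol4-like gene that the spelling rule takes in and is not known as a ribosome biogenesis factor.

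Ribosomes are built in the nucleolus, where RNA polymerase I transcribes a long precursor of ribosomal RNA. Box C/D particles (small nucleolar RNAs with the methyltransferase fibrillarin) and box H/ACA particles (with the pseudouridine synthase dyskerin) modify that precursor, while assembly factors cut and fold it into a small and a large subunit. Early zebrafish embryos live on ribosomes and messenger RNAs laid down in the egg, and their own genome is switched on in the hours before gastrulation. Roles named below are known from yeast and human cells.

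RNA was measured in 37 libraries from whole embryos 6 hours after fertilization. The labels name an RNA-cleaving CRISPR effector (RfxCas13d, DjCas13d or Cas7-11), a GFP dose of 10 pg or 50 pg, and a control or a knockdown arm, which gives 12 groups. Each group had 3 libraries, apart from 2 for RfxCas13d 10 pg knockdown and 4 in each arm of Cas7-11 at 10 pg. The labels name neither a strain nor what the control embryos received, the series design mentions miR-430 but the titles mention GFP, and no label says that replicates came from separate clutches. P-values therefore measure the spread between these libraries, which may be technical.

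GFP, the target named in the titles, was lower in every knockdown library than in every control library of the same effector and dose. With RfxCas13d at 50 pg it ranged from 4226 to 21930 TPM in controls and from 121 to 446 TPM after knockdown. Reads assigned to genes (in units of 1e6) ranged from 3.94 to 8.03 with RfxCas13d, from 5.95 to 7.34 with DjCas13d and from 17.4 to 24.0 with Cas7-11, so that depth and effector cannot be told apart where Cas7-11 is set against the others. The gastrula genes tbxta, sox3, sox32 and gsc were detected in all 37 libraries, the lowest value being 26.5 TPM for sox32. That value belongs to RfxCas13d 50 pg knockdown. Tbxta ranged from 331 to 572 TPM in the RfxCas13d 50 pg controls and from 139 to 322 TPM after knockdown, while sox3, sox32 and gsc overlapped. Whether these arms were alike in stage or composition was not tested. The long noncoding RNA malat1 exceeded 5000 CPM (reads per 1e6 reads) in 5 libraries, which were RfxCas13d 10 pg control 1 and 3, RfxCas13d 50 pg control 1, and DjCas13d 10 pg knockdown 1 and 2. These are called malat1-rich below. Counts of called members that rest on them are given with and without them, apart from the difference between RfxCas13d doses.

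Levels of the members differed widely by role. Over the 19 control libraries, mean levels of the 41 tested members ran from 1870 TPM for ncl to 19.4 TPM for nol8, a 96.6-fold range. The 7 members above 500 TPM were the nucleolar proteins ncl (1870 ± 440 TPM, SD, n = 19) and npm1a (1817 ± 219 TPM), the box C/D proteins fbl (1515 ± 353 TPM), nop56 (1068 ± 319 TPM) and nop58 (719 ± 108 TPM), and the box H/ACA proteins nhp2 (681 ± 79.3 TPM) and dkc1 (651 ± 143 TPM). In that order fbl was above nop56, and nop56 above nop58, in all 19 control libraries. The means of ncl and npm1a, npm1a and fbl, nop58 and nhp2, and nhp2 and dkc1 differed by less than the larger SD of the pair, as did those of 35 of the 40 pairs of neighbours among all tested members. Assembly factors were lower: the 12 large subunit factors had a median of 79.2 TPM, and 24 of the 41 members stayed below 100 TPM. NOB1, the endonuclease that makes the end of 18S rRNA, had the widest relative range among the controls, 12.6-fold, from 7.97 to 100 TPM. Its lowest values, 7.97, 10.26 and 11.35 TPM, were those of the malat1-rich controls, and the lowest of the other controls was 22.36 TPM.

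**Figure D1:**
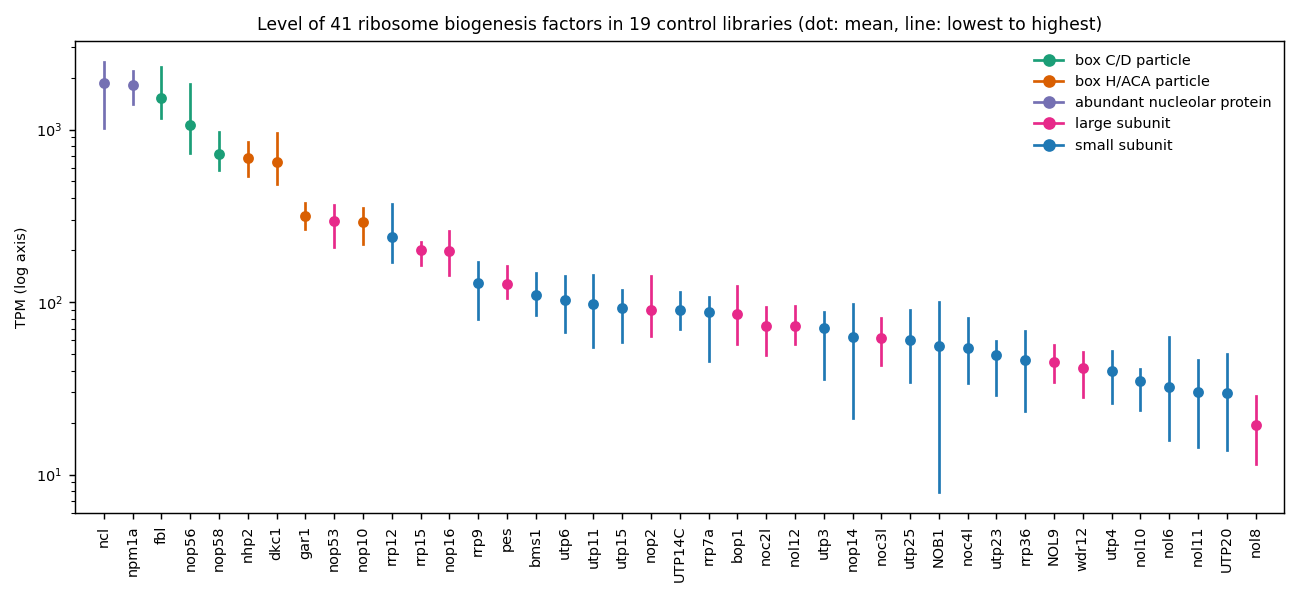
Mean (dot) and lowest-to-highest range (line) of the level of each of 41 members over 19 control libraries, in TPM on a log axis, coloured by role. The nucleolar, box C/D and box H/ACA proteins fill the 8 highest places, and nol8 is lowest at 19.4 TPM.

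Knockdown with RfxCas13d at 50 pg GFP came with lower RNA of most members. In edgeR's quasi-likelihood test with Benjamini-Hochberg adjustment over all 16321 genes tested, 35 of 41 members fell and 0 rose. Among all genes tested in that comparison 28.8% fell and 30.0% rose. The members' median log2 fold change was -0.98 against 0.05 for all genes. Of the members 18 fell at least 2-fold, a count for which no share of all genes is given here. Values of single libraries are given below as normalised CPM (reads per 1e6 reads with TMM scaling, comparable between libraries for 1 gene), and they did not overlap between the arms for 32 members, all lower after knockdown, where 24.8% of all genes did so. In whole embryos, fewer cells of a type and less RNA per cell cannot be told apart.

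The scaling between libraries bears on these folds, since the TMM factors of these controls (0.822 to 0.967) and of the knockdown libraries (1.156 to 1.417) were apart. With library size alone, the median of all genes moved to 0.64, 21 members fell and 3 rose, where 15.5% of all genes fell and 45.2% rose. In limma on log2(TPM + 1) the median of all genes was 0.60, 17 members fell and 5 rose, and the members' median was -0.23, with 14.0% of all genes lower and 47.3% higher. Relative to the median of all genes, the members' median was -1.03 with TMM, -1.01 with library size alone and -0.83 in limma, and 40, 40 and 37 of 41 members lay below it. The share of rises among all calls was 51.1% with TMM and 74.5% with library size alone. Without the malat1-rich libraries 35 members fell, and the median of all genes was 0.05. No share of all genes called is given here for that fit.

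**Figure D2:**
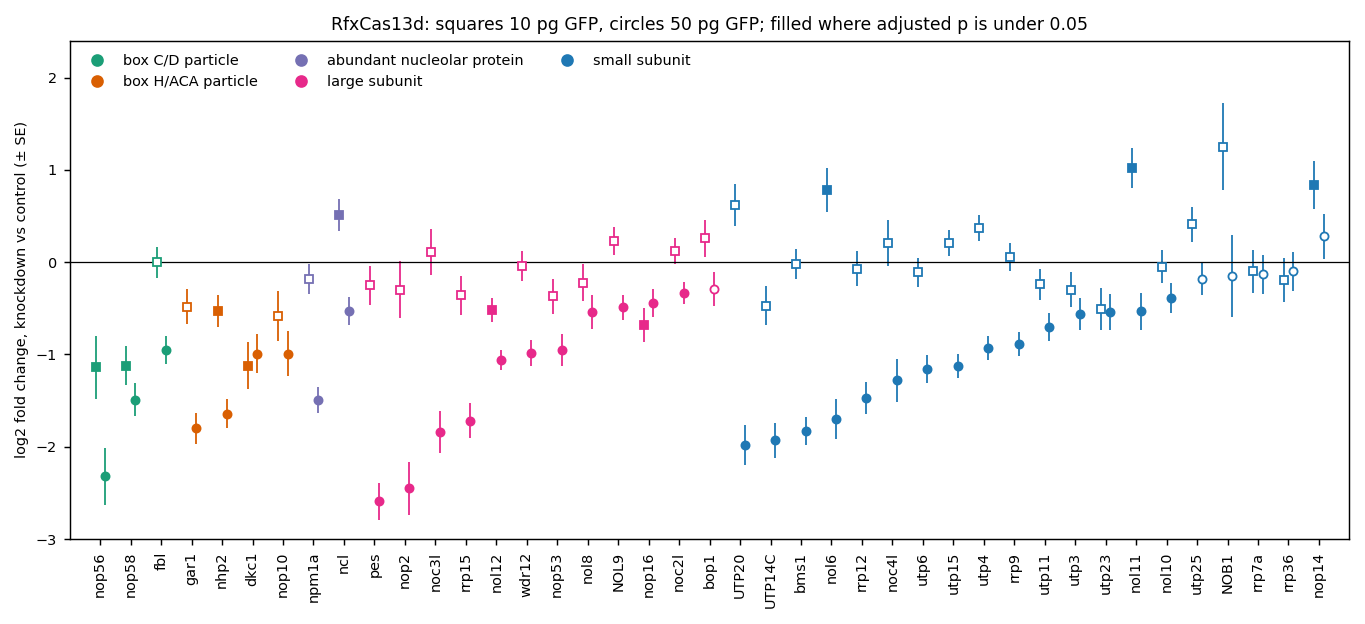
Log2 fold change (± SE) of knockdown against control with RfxCas13d for 41 members, grouped by role, at 10 pg (squares) and 50 pg GFP (circles), filled where the adjusted p is under 0.05. At 50 pg all values but that of nop14 (0.28) lie below 0, the lowest being pes at -2.59.

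The box C/D proteins fell together at 50 pg RfxCas13d, 3 of 3, with a median log2 fold change of -1.49. Nop56, a scaffold of the particle, was at 3394, 2022 and 1411 normalised CPM in the controls and at 660, 351 and 358 after knockdown. Its lowest control was above its highest knockdown library, and it fell by 2.32 ± 0.31 on the log2 scale (SE, adjusted p = 2.36e-07). Nop58, its partner in the particle, had 1823, 1275 and 1170 normalised CPM in controls and 596, 477 and 446 after knockdown, a log2 fold change of -1.49 ± 0.18 (adjusted p = 4.82e-08). Fbl, which carries the methyltransferase, had 1148, 1332 and 1042 normalised CPM in controls. After knockdown it had 831, 562 and 433, again with no overlap, and its log2 fold change was -0.95 ± 0.15 (adjusted p = 4.14e-06). In TPM the arms of fbl overlapped, at 2316, 2021 and 1183 in controls and 1306, 968 and 941 after knockdown.

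All 4 box H/ACA proteins fell as well, with a median of -1.31. Nhp2, an RNA-binding core protein, had 453, 516 and 417 normalised CPM in controls and 205, 114 and 127 after knockdown. The arms were apart, with a log2 fold change of -1.64 ± 0.16 (adjusted p = 8.19e-10). Gar1, which aids release of the substrate RNA, had the largest fall of the 4 at -1.80 ± 0.17. Dkc1, the pseudouridine synthase, had 1546, 1076 and 781 normalised CPM in controls against 613, 510 and 597, a log2 fold change of -0.99 ± 0.21 (adjusted p = 0.000254). The control library with 1546 is malat1-rich. In TPM the arms of dkc1 overlapped, at 824, 617 and 595 in controls and 534, 618 and 630 after knockdown. Nop10, the smallest core protein, fell by 0.99 ± 0.24 with overlapping arms and turned to 0.05 in limma on log2(TPM + 1).

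Of the abundant nucleolar proteins, npm1a fell further than ncl. Npm1a, the zebrafish nucleophosmin that gives the nucleolus much of its outer layer, had 2819, 2888 and 2092 normalised CPM in controls and 1132, 919 and 726 after knockdown. The arms were well apart, with a log2 fold change of -1.49 ± 0.14 (adjusted p = 9.79e-10). Ncl (nucleolin), the most abundant member, had a log2 fold change of -0.53 ± 0.15 (adjusted p = 0.0034), which turned to 0.04 with library size alone and to 0.18 in limma on log2(TPM + 1). Its level in TPM was 1332, 1453 and 2143 in the controls and 1595, 2418 and 1574 after knockdown, so that the arms overlapped on that scale.

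Among large subunit factors 11 of 12 fell, with a median of -0.97. Pes (pescadillo), of the complex with Bop1 and Wdr12 that is needed for 28S and 5.8S rRNA, showed the largest fall of all members. It had 342.5, 269 and 274 normalised CPM in controls and 67.5, 49.4 and 30.7 after knockdown, so that no libraries overlapped. Its log2 fold change was -2.59 ± 0.20 (adjusted p = 3.11e-11). The 3 proteins of this complex differed: wdr12 fell by 0.98 ± 0.14, while bop1 had a log2 fold change of -0.29 ± 0.18 that did not pass (adjusted p = 0.179). Nop2, a methyltransferase of 28S rRNA, fell by 2.45 ± 0.29. Noc3l fell by 1.84 ± 0.23 and rrp15 by 1.72 ± 0.19, both assembly factors of the early large subunit. The remaining falls were smaller, nol12 at -1.06, nop53 at -0.95, nol8 at -0.54, NOL9 at -0.49, nop16 at -0.44 and noc2l at -0.33. The last 4 took the other sign with library size alone.

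Small subunit factors fell in 15 of 20 cases, with a median of -0.80. Bms1, a GTPase of the small subunit processome, had 410, 379 and 336 normalised CPM in controls and 126, 109 and 81.8 after knockdown. No libraries overlapped, and its log2 fold change was -1.83 ± 0.15 (adjusted p = 3.93e-11). UTP20, a large scaffold of the processome, fell by 1.98 ± 0.22, and UTP14C, named for a partner of the helicase DHX37, by 1.93 ± 0.19. Nol6 (Utp22 in yeast) fell by 1.70 ± 0.22, rrp12, needed for export of the subunit, by 1.47 ± 0.17, and noc4l, a partner of Nop14, by 1.28 ± 0.23. Of the proteins that bind the precursor early in transcription, utp15 fell by 1.13 ± 0.13, utp4 by 0.93 ± 0.13, and nol11 by 0.53 ± 0.20. The calls of nol11, utp3 (-0.56), utp23 (-0.54) and nol10 (-0.39) took the other sign with library size alone.

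The 6 members that did not pass were bop1, nop14 (0.28 ± 0.24), NOB1 (-0.15 ± 0.44), rrp36 (-0.10 ± 0.21), rrp7a (-0.13 ± 0.21) and utp25 (-0.18 ± 0.17). Besides bop1, all of these belong to the small subunit. Nop14, a scaffold of the processome, had 52.8, 61.9 and 108 normalised CPM in controls and 74.5, 119 and 75.6 after knockdown, with overlapping arms. Without RfxCas13d 50 pg control 3 its log2 fold change was 0.64 and passed (adjusted p = 0.0221). Rrp36 had 36.7, 40.9 and 33.7 normalised CPM in controls and 24.4, 53.3 and 26.8 after knockdown, with both the highest and the lowest value in the knockdown arm.

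As a description, members with high levels fell further. All 11 members at 200 TPM or more in the mean of the controls fell, with a median log2 fold change of -1.47. Below 200 TPM 24 of 30 fell, with a median of -0.80. The split was not made over all genes, so it shows no trait of the members. Most of the higher members are particle or nucleolar proteins, so level and role cannot be told apart. The mean of the controls also includes the controls of this comparison. Within the knockdown arm the libraries were not alike: library 1 held the highest of the 3 values for 27 of 41 members, and library 3 the lowest for 25.

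The summed level of all 42 members made up 1.17% to 1.31% of TPM in the RfxCas13d 50 pg controls and 0.755% to 0.965% after knockdown, with no overlap. At 10 pg the shares were 1.16% to 1.20% in controls and 1.04% to 1.12% after knockdown, also with no overlap. In the 4 arms of DjCas13d they ran from 1.11% to 1.27%, and in those of Cas7-11 from 1.06% to 1.19%. The Cas7-11 10 pg arms did not overlap either, at 1.101% to 1.185% in controls and 1.065% to 1.094% after knockdown. Those of Cas7-11 at 50 pg and of DjCas13d at both doses overlapped. TPM sums to a constant in every library, so these shares also move with the other genes.

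**Figure D3:**
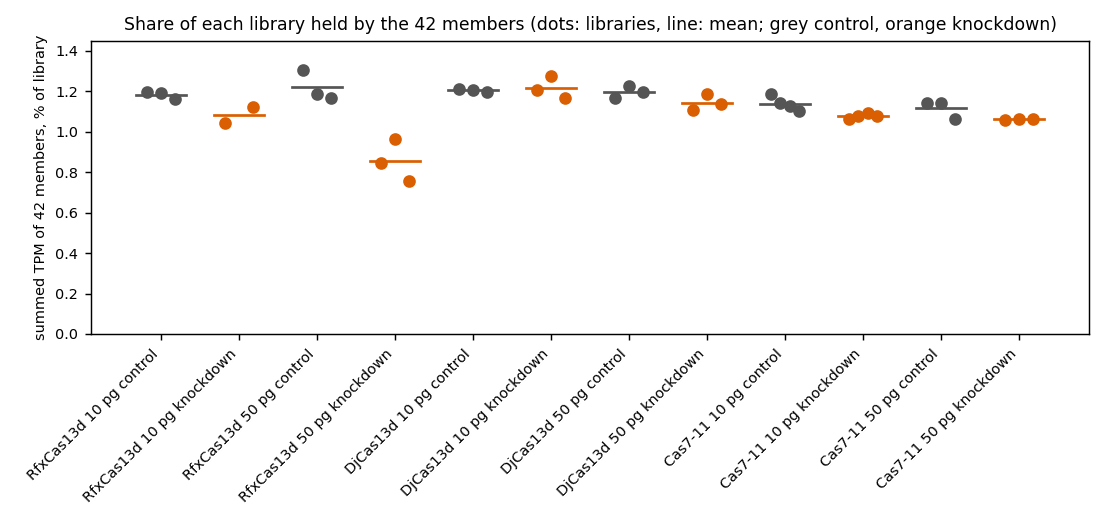
Summed TPM of the 42 members as percent of each library (dots) with the group mean (line), in the 12 groups, grey for control and orange for knockdown. The RfxCas13d 50 pg knockdown libraries lie at 0.755% to 0.965%, below every other library.

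With RfxCas13d at 10 pg, fewer members were called and in both directions. Of 41 members, 6 fell and 4 rose, where 6.98% of all genes tested fell and 7.0% rose. The falls were in nop56 (-1.14 ± 0.34, adjusted p = 0.0254), nop58 (-1.12 ± 0.21, adjusted p = 0.00182), dkc1 (-1.12 ± 0.25, adjusted p = 0.00521), nop16 (-0.68 ± 0.18), nhp2 (-0.53 ± 0.17, adjusted p = 0.0384) and nol12 (-0.52 ± 0.13, adjusted p = 0.00954). The rises were in nol11 (1.02 ± 0.22, adjusted p = 0.00411), nop14 (0.84 ± 0.26), nol6 (0.78 ± 0.24) and ncl (0.51 ± 0.17), of which the first 3 are small subunit factors. NOB1 had the largest positive value, 1.25 ± 0.47, which did not pass (adjusted p = 0.0721). Pes (-0.25 ± 0.21), bms1 (-0.02 ± 0.16), npm1a (-0.18 ± 0.16) and fbl (0.00 ± 0.17) did not pass either. For fbl the scale mattered. Its normalised CPM was 850, 948 and 810 in controls and 834 and 900 after knockdown, with overlap. In TPM it had 2026, 1354 and 2000 in controls and 1030 and 1109 after knockdown, so the arms were apart and lower. The controls with 2026 and 2000 TPM are malat1-rich. Why the scales differ was not tested.

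Values of the arms did not overlap for 17 members that were lower and 12 that were higher after knockdown, where 21.9% and 24.4% of all genes did so. These calls moved with the malat1-rich controls. Dkc1 had 1566, 746 and 1534 normalised CPM in the 3 controls and 568 and 612 after knockdown. The malat1-rich controls were those with 1566 and 1534. Nop58 had 1654, 910 and 1695 in the controls and 643 and 663 after knockdown. Nol11 had 38.5, 65.3 and 40.1 in the controls and 95.5 and 99.5 after knockdown. In all 3 genes the arms did not overlap, and the control that is not malat1-rich was the nearest to the knockdown libraries. The same held for NOB1, at 17.1, 69.8 and 16.4 in the controls and 82.4 and 81.9 after knockdown.

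Between the 2 malat1-rich controls and the third control, 18 members were apart and higher, 18 apart and lower, and 5 overlapped. Among all genes tested 38.5% were apart and higher and 41.9% apart and lower, so the members' shares lie near those of all genes. The 13 messenger RNAs of the mitochondrial genome held 9.65% and 8.70% of reads assigned to genes in the malat1-rich controls and 2.25% in the other one. Without the malat1-rich libraries, 0 members were called at 10 pg, and 0.00581% of all genes. Nop58 then had a log2 fold change of -0.48, dkc1 of -0.34, nop56 of -0.22, nol11 of 0.58 and nhp2 of -0.50, which leaves 1 control library against 2. What part the difference between these controls has in the calls was not tested. Leaving out either knockdown library left 1 call. Leaving out control 1 left 4 calls and control 3 left 3. No share of all genes is given here for these refits, so the counts show no trait of the members.

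All 6 members that fell at 10 pg also fell at 50 pg. As 35 of 41 members fell there, most members picked at 10 pg would do so, and no share of all genes is given for this overlap. Of the 4 that rose at 10 pg, nol11, nol6 and ncl fell at 50 pg, and nop14 was not called there. The falls of nol11 and ncl took the other sign with library size alone and in limma. A further 26 members fell at 50 pg only, which the test of the difference between doses covers gene by gene. In that test 24 of 41 members had a lower response at 50 pg than at 10 pg and 0 a higher one, where 20.9% of all genes were lower and 19.8% higher. The members' median difference was -0.95 on the log2 scale. With library size alone 18 members were lower and 1 higher (median -0.49), where 12.3% of all genes were lower and 28.8% higher. In limma on log2(TPM + 1) the counts were 16 and 1 (median -0.53), where 13.5% and 26.5% of all genes were. Without the malat1-rich libraries 1 control is left at 10 pg, so no count is given. The clearest were bms1 (-1.81 ± 0.21, adjusted p = 5.04e-07), UTP20 (-2.60 ± 0.32, adjusted p = 7.48e-07) and pes (-2.34 ± 0.29, adjusted p = 7.64e-07). Dkc1 (0.14 ± 0.32) and nop58 (-0.37 ± 0.27) did not differ between doses beyond the test's threshold.

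**Figure D4:**
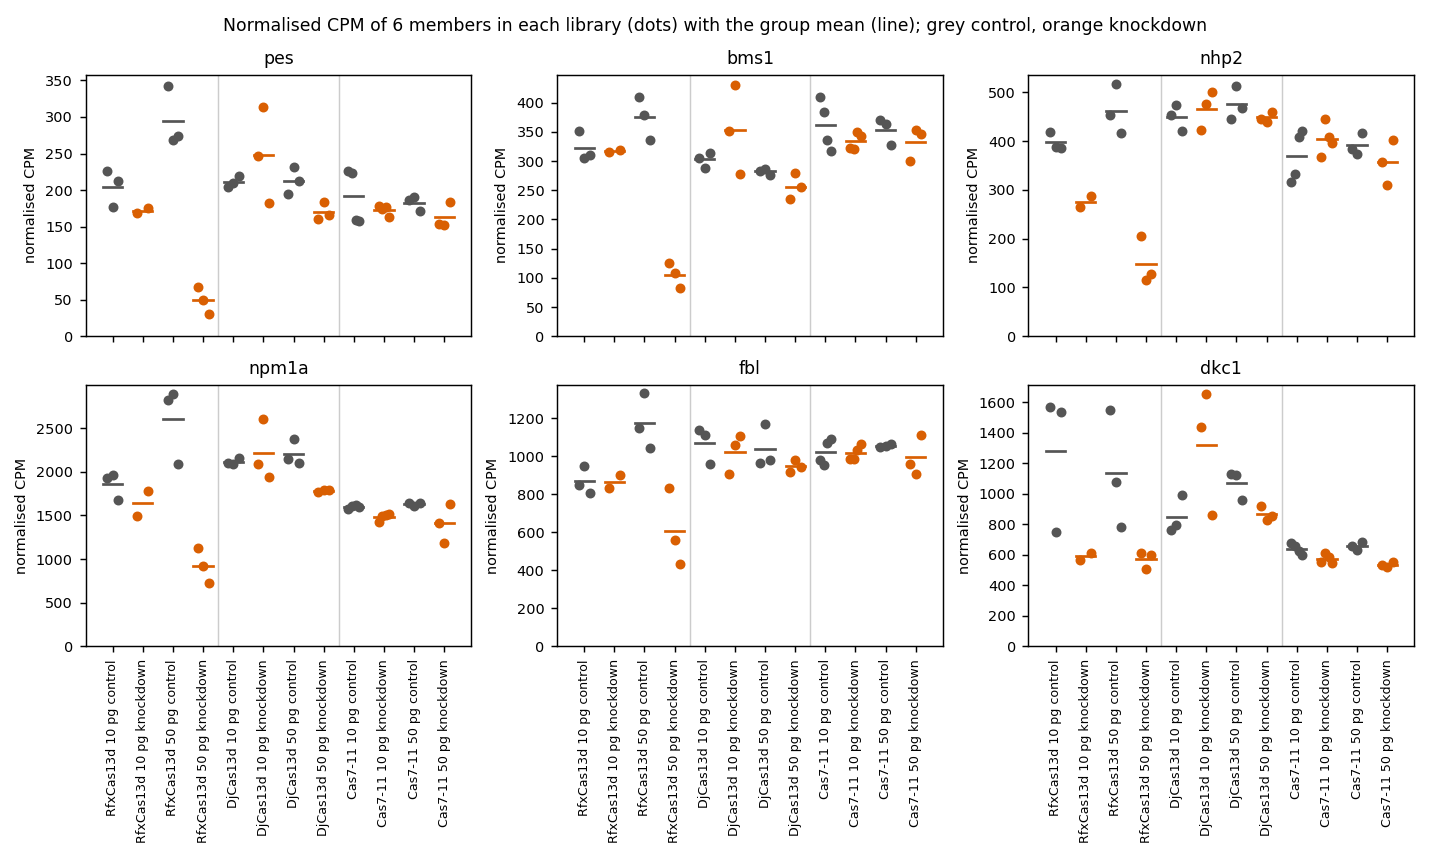
Normalised CPM of pes, bms1, nhp2, npm1a, fbl and dkc1 in every library (dots) with the group mean (line), for 12 groups, grey for control and orange for knockdown. In pes, bms1, nhp2 and npm1a the 3 RfxCas13d 50 pg knockdown libraries lie below all others, and in dkc1 the malat1-rich libraries are the highest.

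DjCas13d gave 0 called members at either dose. At 50 pg 1 gene in all was called by edgeR (0.00613% of those tested), the members' median log2 fold change was -0.14, and 3 members had an unadjusted p under 0.05, as had 9.36% of all genes. Npm1a had 2147, 2379 and 2096 normalised CPM in controls and 1766, 1797 and 1791 after knockdown. The arms were apart, yet the log2 fold change of -0.31 ± 0.14 did not pass (adjusted p = 0.513). Nop58 was at -0.46 ± 0.18 (adjusted p = 0.49), nop16 at -0.32 ± 0.15, noc2l at -0.23 ± 0.12, and the largest positive values were 0.47 ± 0.43 for NOB1 and 0.20 ± 0.20 for nol11. Values did not overlap between the arms for 16 members, all lower after knockdown (39.0%), where 12.2% of all genes did so. Fitted on the DjCas13d 50 pg libraries alone, 3.75% of all genes were lower and 3.84% higher, and 4 members were lower: nop56 (-0.48), nop58 (-0.46), nop10 (-0.35) and npm1a (-0.30).

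At 10 pg DjCas13d, 0 genes of all tested were called (0% of those tested), the members' median was 0.05, and 7 members had an unadjusted p under 0.05, as had 15.6% of all genes. Nop56 had 1155, 1177 and 1485 normalised CPM in controls and 2788, 3234 and 1198 after knockdown. The 2788 and 3234 belong to the malat1-rich libraries, and the third library lay among the controls. Its log2 fold change was 0.92 ± 0.29 (adjusted p = 0.194), that of dkc1 0.63 ± 0.21 (adjusted p = 0.198), of nop58 0.46 ± 0.18 and of wdr12 0.30 ± 0.14. Without DjCas13d 10 pg knockdown 3, which leaves the malat1-rich libraries as the knockdown arm, 3 members were called lower and 6 higher, where 8.44% of all genes were lower and 7.72% higher. Among them were nop56 (1.25, adjusted p = 0.00631) and NOB1 (-1.61, adjusted p = 0.0217). DjCas13d responses at 50 pg and 10 pg differed in 0 members, where 0% of all genes differed. The smallest adjusted p was 0.149, for nop58 (-0.92 ± 0.25) and nop56 (-1.40 ± 0.41), while dkc1 was at -0.94 ± 0.30, and 11 members had an unadjusted p under 0.05, as had 17.6% of all genes. Without the same library 6 members were lower and 2 higher, where 6.39% of all genes were lower and 7.59% higher. Without the malat1-rich libraries, which leaves knockdown 3 alone in its arm, 0 members were called at 10 pg and 0 between the doses, as were 0% of all genes.

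Cas7-11 also gave 0 called members at either dose, in the most deeply sequenced libraries. At 10 pg 12 genes in all were called (0.0735%), members ranged from -0.21 to 0.13 on the log2 scale, and 0 had an unadjusted p under 0.05, which 2.59% of all genes had. The smallest p belonged to noc2l (-0.18 ± 0.11), utp4 (-0.19 ± 0.11), rrp12 (-0.21 ± 0.14) and wdr12 (-0.14 ± 0.12), while nhp2 (0.13 ± 0.13) and NOL9 (0.10 ± 0.12) had the largest positive values. Pes had 226, 223, 159 and 158 normalised CPM in the 4 controls and 178, 174, 178 and 163 after knockdown, so the knockdown libraries lay within the range of the controls.

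At 50 pg Cas7-11, 10 genes were called (0.0613%) and members ranged from -0.45 to 0.20. Utp4, of the early transcription-bound complex, had 71.7, 68.0 and 70.0 normalised CPM in controls and 55.2, 52.1 and 46.4 after knockdown. The arms were apart, but the log2 fold change of -0.45 ± 0.13 did not pass over all genes (adjusted p = 0.538), and DESeq2 called it (adjusted p = 0.00615). Noc2l was at -0.29 ± 0.12, utp3 at -0.36 ± 0.16 and wdr12 at -0.30 ± 0.14, and NOL9 (0.20 ± 0.13) and nol6 (0.16 ± 0.21) had the largest positive values. In all, 5 members had an unadjusted p under 0.05, as had 3.22% of all genes, and 15 had arms that did not overlap and were lower after knockdown (36.6%), where 7.85% of all genes did so. The interval of 2 SE around the log2 fold change stayed above -1 in 41 of 41 members at both Cas7-11 doses and in 40 of 41 at both DjCas13d doses. A fall of 2-fold thus lay outside that interval for nearly all members. Cas7-11 responses differed between doses in 0 members, where 0% of all genes did so, with 0 members at an unadjusted p under 0.05 against 1.23% of all genes. The smallest p belonged to nop16 (-0.33 ± 0.20).

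**Figure D5:**
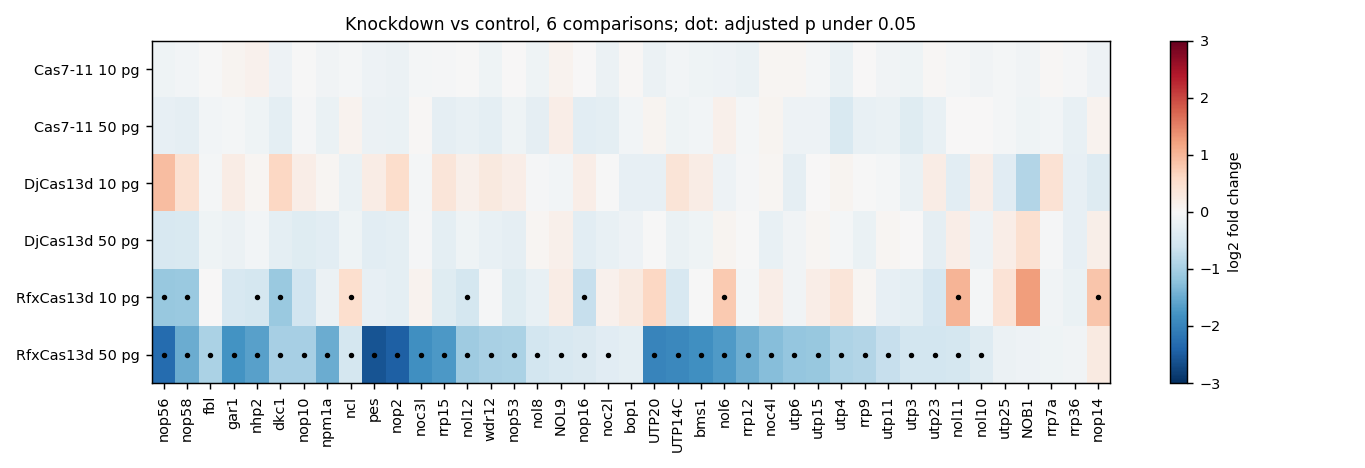
Log2 fold change of knockdown against control (colour) for 41 members (columns, grouped by role) in 6 comparisons (rows), with a dot where the adjusted p is under 0.05. Dots stand only in the RfxCas13d rows, 10 of them at 10 pg and 35 at 50 pg.

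With DjCas13d at 50 pg, GFP ranged from 7185 to 9962 TPM in controls and from 33.2 to 119 TPM after knockdown. With Cas7-11 at 50 pg it ranged from 701.5 to 1329 TPM in controls and from 223 to 313 TPM after knockdown. GFP levels were thus not matched between effectors, and their part in the differences was not tested. At 50 pg the response to RfxCas13d was tested against the other effectors directly. Compared with DjCas13d, 26 of 41 members had a lower response and 0 a higher one, where 17.5% of all genes were lower and 15.8% higher. The median difference over members was -0.75 on the log2 scale. The count was 17 with library size alone (9.50% of all genes lower) and 14 in limma on log2(TPM + 1) (8.90%). It was 26 without the malat1-rich libraries, for which no share of all genes is given here. Bms1 (-1.69 ± 0.20, adjusted p = 8.97e-07), pes (-2.27 ± 0.27, adjusted p = 9.30e-07) and nhp2 (-1.55 ± 0.22, adjusted p = 5.38e-06) differed most clearly.

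Compared with Cas7-11, also 26 of 41 members had a lower response and 0 a higher one, where 22.6% of all genes were lower and 22.7% higher. With library size alone 15 were lower and 1 higher (1964 and 5796 of all 16321 genes), and in limma 15 and 3 (10.3% and 34.8% of all genes). Without the malat1-rich libraries the counts were 26 and 0, for which no share of all genes is given here. Here pes (-2.42 ± 0.27, adjusted p = 1.05e-07), bms1 (-1.74 ± 0.20, adjusted p = 1.33e-07) and gar1 (-1.73 ± 0.24, adjusted p = 2.09e-06) led. Dkc1 differed from neither effector beyond the threshold, at -0.68 ± 0.30 against DjCas13d (adjusted p = 0.079) and -0.69 ± 0.30 against Cas7-11 (adjusted p = 0.0615). Both comparisons share the RfxCas13d libraries. DjCas13d and Cas7-11 responses differed in 0 members at 50 pg, where 0.00613% of all genes differed. The smallest adjusted p was 0.916, utp4 (0.40 ± 0.18), utp3 (0.37 ± 0.23) and nol8 (0.33 ± 0.25) had the smallest p, and 1 member had an unadjusted p under 0.05, as had 5.32% of all genes.

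Between control embryos given 50 pg and 10 pg GFP, 0 members were called with any effector. With RfxCas13d, where 1.70% of all genes were called, 32 of 41 members had positive values with a median of 0.22, and 11 had an unadjusted p under 0.05, as had 17.8% of all genes. Without the malat1-rich libraries 0 members and 0% of all genes were called. Npm1a (0.49 ± 0.14, adjusted p = 0.0667), gar1 (0.50 ± 0.17) and fbl (0.43 ± 0.15) had the smallest p. With DjCas13d and Cas7-11, 0% of all genes were called, and 0 members had an unadjusted p under 0.05 against 3.43% and 1.17% of all genes. The smallest p there belonged to NOL9 (-0.23 ± 0.14), rrp7a (0.34 ± 0.21) and nop58 (0.29 ± 0.18) with DjCas13d, and to utp6 (0.18 ± 0.13), utp23 (0.21 ± 0.18) and rrp9 (0.12 ± 0.12) with Cas7-11.

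Other genes of the pathway were read from the same test at 50 pg RfxCas13d, where 28.8% of all genes fell and 30.0% rose. With library size alone 15.5% of all genes fell and 45.2% rose (median 0.64). In limma on log2(TPM + 1) the shares were 14.0% and 47.3% (median 0.60). A list of other small subunit factors names processome genes, late factors such as ltv1, tsr1 and riok2, and the splicing gene sf3b14. Of its 38 tested genes, 29 fell and 2 rose (median -0.88). With library size alone the counts were 18 and 7 (median -0.31), and in limma on log2(TPM + 1) 11 and 7 (median -0.09). Among them were pdcd11 (-1.71 ± 0.17), the Rrp5 homologue, and heatr1 (-1.54 ± 0.15), the Utp10 homologue. Of 40 other large subunit assembly factors, 34 fell and 2 rose (median -1.07), against 21 and 6 with library size alone (median -0.48) and 18 and 7 in limma (median -0.36). The clearest were gtpbp4 at -2.06 ± 0.17 and the AAA ATPase nvl at -1.30 ± 0.12. For RNA polymerase I and its factors the counts were 12 lower and 1 higher of 18 (median -0.67), and the median moved to -0.07 with library size alone (6 lower, 2 higher) and 0.10 in limma (6 lower, 3 higher). Its clearest falls were in polr2h (-1.93 ± 0.21) and polr2l (-1.68 ± 0.22), subunits that all nuclear RNA polymerases share.

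Cytosolic ribosomal proteins, the building blocks that these factors assemble, fell in 81 of 82 cases with 0 rises and a median of -1.76. With library size alone 78 fell (median -1.18), and in limma 75 of 83 (median -1.01), again with 0 rises. Rpl3 was at -2.17 ± 0.22, and rpl7l1, a protein like Rpl7 that the symbol pattern takes in, at -1.50 ± 0.13. In the same comparison 28.8% of all genes fell and 30.0% rose. The shares were 15.5% and 45.2% with library size alone (median 0.64), and 14.0% and 47.3% in limma (median 0.60). For export and late maturation of the large subunit, 2 of 8 genes fell and 4 rose (median 0.32), with nmd3, the export adaptor, at -1.15 ± 0.21 and eif6, which keeps the subunits apart, at 0.60 ± 0.13. With library size alone 1 fell and 6 rose (median 0.91), and in limma 0 of 7 fell and 6 rose (median 0.80), with nmd3 at -0.26 (adjusted p = 0.127). The RNA exosome, which trims the precursor, had 5 falls and 2 rises of 14 (median -0.34). With library size alone (median 0.25) and in limma (median 0.47) it had 2 falls and 7 rises, near the shares of all genes there. Its clearest falls were in exosc5 (-1.48 ± 0.24) and exosc6 (-1.06 ± 0.18).

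The Myc family, transcription factors known to act on ribosome genes, had 4 falls and 4 rises of 11, near the shares of all genes (28.8% lower, 30.0% higher), with mych at -1.61 ± 0.20 and max at -0.78 ± 0.13. With library size alone 2 fell and 4 rose, where 15.5% of all genes fell and 45.2% rose. Max, at -0.19, then no longer passed (adjusted p = 0.143, edgeR), while in limma it was at 0.14. At 10 pg RfxCas13d 37 of 82 ribosomal proteins fell (median -0.90), and in the other 6 lists 0 to 3 genes fell and 0 to 4 rose, where 6.98% of all genes fell and 7.0% rose. Without the malat1-rich libraries 0 genes of these lists were called at 10 pg, and the ribosomal proteins' median was -0.27. With DjCas13d and Cas7-11, 0 genes of these 7 lists were called at either dose, where 0% to 0.0735% of all genes were called. The ribosomal proteins' median was 0.56 with DjCas13d at 10 pg and -0.54 at 50 pg, where that of all genes was -0.0 and 0.01. The DjCas13d 10 pg knockdown arm holds malat1-rich libraries. With Cas7-11 the ribosomal proteins' median was 0.05 at 10 pg and -0.05 at 50 pg.

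A gene name table gives symbols of the same pattern to 5 genes that the deposited column leaves blank, and these were not counted as members. At 50 pg RfxCas13d nol7 (-1.35 ± 0.16) and rrp1 (-0.63 ± 0.18) fell. Rrp8 (0.28 ± 0.21) and utp18 (-0.34 ± 0.31) did not pass, and nol4la, like nol4lb not known as a ribosome biogenesis factor, rose (4.77 ± 1.0).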

How the data were processed

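The authors deposited raw counts (whole reads per gene, not normalized) and TPM values for each of 37 libraries. The build was danRer11, per the submitters' processing notes. Which aligner and counter were used, and whether counting used strand, is not given in the sources used here. Summary entries outside genes held 17.3% to 26.4% of the reads and stayed out of library sizes and tests. Overlapping and antisense genes, and genes with near-identical copies, are therefore uncertain. Replicates within a group were distinct libraries: the chi-square per degree of freedom of 40 pairs lay between 3.21 and 58.4.

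The test was that of edgeR 4.0.16 (R 4.3.3). FilterByExpr left 16321 genes, TMM scaled the libraries, and 1 robust quasi-likelihood fit held all 37 libraries with a coefficient per group, with a biological coefficient of variation of 0.253. There were 15 contrasts, adjusted by Benjamini-Hochberg over all genes tested, with a threshold of 0.05. The SE of a log2 fold change is its size divided by the square root of F. The functions were tested on simulated counts. Alternatives used DESeq2 1.42.0, limma 3.58.1 on log2(TPM + 1), other scalings and filters, and left out each library in turn.

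Same-numbered control and knockdown libraries deviated together, above 0.1 in all 4 pairs (0.28 to 0.505), with Cas7-11 at 10 pg alone. Unlike numbers there ranged from -0.473 to 0.446. They were positive within replicates 1 and 2 (knockdown 1 with control 2 at 0.413) and within 3 and 4 (knockdown 4 with control 3 at 0.446). Between these sets they were negative, so the pattern is not one of same numbers alone. The replicate number as a block gave 0 called members with Cas7-11 at 10 pg. It left out RfxCas13d 10 pg control 3, which has no partner.

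Members, roles and lists were chosen with earlier results of these data known. Named with full values were pes, bms1, nhp2, npm1a, fbl and dkc1, and in each knockdown comparison the 4 members of smallest adjusted p and the 2 of largest positive log2 fold change (for other contrasts the 3 of smallest adjusted p, for other lists the 2 of smallest adjusted p at 50 pg RfxCas13d). Other members named were singled out after their values were seen, as were the gastrula genes. No sequences or gene positions were used here. One further gene list is not reported here.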

Additional observations from a re-analysis of the deposited data

Results flagged for a closer look

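In 3 cases 1 library of a group of 4 stood apart from the other three by its gap relative to the range. Rrp7a had 99.78 TPM in Cas7-11 10 pg control 4, against 94.6 to 95.4 TPM in the other controls. Noc2l had 65.94 TPM in Cas7-11 10 pg knockdown 4, against 74.0 to 74.7 TPM in the others. Wdr12 had 43.6 TPM in Cas7-11 10 pg knockdown 1, against 41.1 to 41.2 TPM in the others. Such flags come up by chance in about 5% of groups, and 82 groups were looked at.

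Responses differed between groups in tests of the difference itself. The RfxCas13d response at 50 pg was lower than at 10 pg in 24 of 41 members, where 20.9% of all genes were lower. It was lower than that of DjCas13d at 50 pg in 26 members, where 17.5% of all genes were lower. Compared with Cas7-11 at 50 pg it was lower in 26 members, where 22.6% of all genes were lower. These 3 tests share the RfxCas13d 50 pg libraries.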

How the results depend on the processing

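No share of all genes is given in this section for fits that left out 1 library. At 50 pg RfxCas13d, where 35 members fell, 30 to 34 were called when 1 library was left out and 33 with the replicate block. Only the libraries compared gave 24 falls and 0 rises, where 21.2% of all genes fell and 23.6% rose. A filter of at least 50 reads in the mean gave 26 falls and 0 rises, where 31.6% of all genes fell and 32.4% rose. Limma called 22 on log2(TPM + 1) and 22 on log2(TPM + 0.1), each 17 lower and 5 higher, and 21 with no filter, 16 lower and 5 higher. Of all genes these fits called 61.3%, 61.6% and 41.0%, against 58.8% in the main fit and 57.6% with the replicate block. With at least 2-fold there were 18, and no share of all genes is given for the 2-fold counts here. At 10 pg RfxCas13d the main fit called 10 members and 14.0% of all genes. Library size alone gave 11 members (5 lower, 6 higher) and 12.8% of all genes. Limma gave 15 on log2(TPM + 1) and on log2(TPM + 0.1) (7 lower, 8 higher in each), where 22.2% and 20.9% of all genes were called. With no filter limma gave 12 (5 lower, 7 higher) and 10.9% of all genes. The replicate block gave 2 members and 2.11%, and only the libraries compared gave 0 members and 0%. An adjusted p under 0.01 gave 4 members, for which no share of all genes is given here, and at least 2-fold gave 4. Leaving out 1 library gave 1 to 14. The replicate block changed no other count by over 1.5 times.

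DjCas13d at 50 pg had 4 called members with only the libraries compared, where 7.59% of all genes were called. At 10 pg, leaving out 1 library gave 0 to 9, and for the difference between its doses 0 to 8, where DESeq2 gave 1 (1.47% of all genes). DESeq2 gave 1 for Cas7-11 at 50 pg (0.24% of all genes) and 1 for the RfxCas13d controls (4.28% of all genes). Those controls gave 0 to 4 with 1 library left out (4 without 10 pg control 2, 3 without 50 pg control 3). For RfxCas13d against DjCas13d the 26 became 17 with library size alone, 14 in each of the 3 limma fits and 17 with at least 2-fold. Of all genes 33.3% were called in the main fit and 35.8% with library size alone. Limma called 36.2% on log2(TPM + 1), 34.4% on log2(TPM + 0.1) and 21.9% with no filter. Against Cas7-11 the 26 became 16 with library size alone (15 lower, 1 higher) and 16 with at least 2-fold. There 45.3% of all genes were called in the main fit and 47.5% with library size alone. Apart from the construction of the stricter thresholds, the cause was not tested.

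Not every change of sign is listed in this paragraph. At 50 pg RfxCas13d, 1 member was positive in the main fit, 15 with library size alone and 17 in limma on log2(TPM + 1). With library size alone the log2 fold change changed sign, among others, in noc2l (0.26), nol10 (0.22), nop16 (0.17), NOL9 (0.11), nol11 (0.06), utp23 (0.06), nol8 (0.05), ncl (0.04) and utp3 (0.03). By limma on log2(TPM + 1), on log2(TPM + 0.1) and with no filter, in this order, it became 0.44, 0.45 and 0.44 in noc2l, 0.38, 0.39 and 0.38 in nol10, 0.08, 0.09 and 0.08 in nol8, and 0.13, 0.14 and 0.13 in nol11. It was 0.54 and 0.55 in utp25 in the first pair of these fits. All 3 fits gave 0.24 in nop16, 0.24 in NOL9, 0.18 in utp23, 0.18 in ncl, 0.14 in utp3, 0.05 in nop10 and 0.03 in utp11. Against Cas7-11 the difference became 0.07 in utp4 with library size alone. By the 3 limma fits it became 0.18, 0.19 and 0.18 in utp4, 0.03 in ncl, 0.01 in nop10 and 0.00 in nol12.

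Added after the data were seen, lower-case symbols alone gave 32 falls at 50 pg RfxCas13d and symbols from the gene name table gave 37 falls and 1 rise. In that comparison 28.8% of all genes fell and 30.0% rose. Cas7-11 10 pg replicates 1 and 2 alone, or 3 and 4 alone, gave 0 of 41 members, where 0.00618% and 0.031% of all genes were called. The RfxCas13d and DjCas13d libraries had fewer reads than those of Cas7-11, and the RfxCas13d 10 pg knockdown only 2 libraries, which limits what that comparison can show.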
